A study of Mus musculus with 2 samples.

Results

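The insulin-like growth factor 1 (IGF1) system was followed through 10 mouse genes, chosen by name: the ligand gene Igf1, its receptor gene Igf1r, the binding protein genes Igfbp2, Igfbp3, Igfbp4, Igfbp5, Igfbp6 and Igfbp7, and the protease genes Pappa and Pappa2. All 10 were found by symbol among the 17431 genes with a read in either library. The first library came from skin-derived precursors (SKPs), dermal cells that are selected by growth in FGF2 and EGF, here from BALB/c mice at postnatal day 4, in DMEM/F12 with 2% B27, 0.1% penicillin/streptomycin and 2 growth factors (40 ng/ml FGF2, 20 ng/ml EGF). The second came from fibroblasts of BALB/c dermis at postnatal day 3, in DMEM with 10% fetal bovine serum. Neither the number of mice behind a culture nor its passage is given in the sources used here. Each cell type had 1 library, so no difference below has a replicate check, and cell type cannot be told apart from medium and age.

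IGF1 is a secreted growth factor that signals through IGF1R, a receptor tyrosine kinase, and in skin it is made mainly by mesenchymal cells and acts on epidermis and hair follicle as well as on the cells that make it. IGF binding proteins can hold IGFs in the medium and matrix and can keep them from the receptor. Pappalysins, the proteases encoded by Pappa and Pappa2, cut certain binding proteins and so release the ligand.

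The libraries held 22981183 reads for SKPs, 85.13% of them mapped, and 23374716 for fibroblasts, 81.65% mapped. A single read on 1 kb of gene equals 0.0528 RPKM in SKPs and 0.0543 in fibroblasts. All 12 dermal fibroblast and mesenchyme markers were at RPKM 1 or more in both libraries, 4 of them higher and 3 lower in SKPs. Of 14 expressed SKP and neural crest markers, 3 were higher (Nes, Sox2 and Tfap2a) and 3 lower (Sox10, Ly6a and Foxd3). Of these 14, 1 passed the expression filter by its SKP level only and 2 by their fibroblast level only. The SKP and neural crest list summed to 773 RPKM in SKPs and 1640.2 in fibroblasts. Its expressed genes had a median log2 ratio of SKP over fibroblast of -0.25. Ly6a alone gave 96.5 RPKM of the sum in SKPs and 883.9 in fibroblasts. Nes, 1 of the 3 called higher, stood at 28.2 RPKM in SKPs and 6.30 in fibroblasts, while 8 of the 14 were called neither way. Lists of other cell types known to make Igf1 or Igfbp7 are given beside the genes they bear on. The 12 keratinocyte markers summed to 39.1 RPKM in SKPs and 3.22 in fibroblasts, with 7 over the expression filter and called higher, all by their SKP level only. The 10 mast cell markers summed to 152 RPKM in SKPs and 2.07 in fibroblasts, with 7 called higher that passed the filter in SKPs only and 1 called lower that passed it in fibroblasts only. Counts of genes that passed by the higher library alone follow from the filter. Schwann cell markers had 1 higher and 3 lower of 7, with sums of 96.9 RPKM in SKPs and 124.8 in fibroblasts. Of these 7, 2 passed the filter by their SKP level only and 4 by their fibroblast level only. The part of these cells in the results was not tested, and fewer cells of a type cannot be told apart from less RNA per cell.

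For its depth, the SKP library held more RNA of the ligand Igf1, of the binding proteins Igfbp3 and Igfbp4 and of the protease Pappa2, and less of the receptor Igf1r, of Igfbp2 and Igfbp7 and of the protease Pappa. Thus 4 of the 10 genes stood 2-fold or more above and 4 stood 2-fold or more below their fibroblast level, against 12.1% and 6.41% of the 12053 expressed genes, or 18.5% in either direction. Igfbp5 and Igfbp6 were under 2-fold apart. Every role with more than 1 gene was split: the binding proteins had 2 higher, 2 lower and 2 neither, and the pappalysins had 1 of each. The log2 ratios of SKP over fibroblast ran between -3.14 for Igfbp2 and 4.63 for Igfbp4, with a median of 0.32, beside -0.01 over all expressed genes. Their median size without sign was 2.27, beside 0.37 over all expressed genes. The 10 genes were chosen with earlier results of these libraries known, so these counts describe the set and do not test it.

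Levels are given as RPKM, reads of a gene scaled for its length and for the counted reads of the library. A gene counted as expressed at RPKM 1 or more with 20 reads or more in either library, and was called for a 2-fold difference only if the 95% exact counting interval of its ratio, given in parentheses, also excluded equality. Such intervals cover counting error only. All 10 genes passed this filter, though Pappa2 did so by its SKP level only.

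Of calls by other rules, a 1.5-fold threshold gave 5 higher and 4 lower, with Igfbp5 added, against 18.7% and 14.2% of expressed genes (32.9% in all). A 4-fold threshold gave 3 and 3, without Igf1 and Igf1r, against 5.85% and 2% (7.85% in all). With a filter at RPKM 5, 3 and 4 of the 9 remaining members were called, against 9.23% and 5.33% (14.6% in all). Over every gene with a read the members' calls were again 4 and 4, against 12.6% and 6.22% (18.8% in all).

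**Figure D1:**
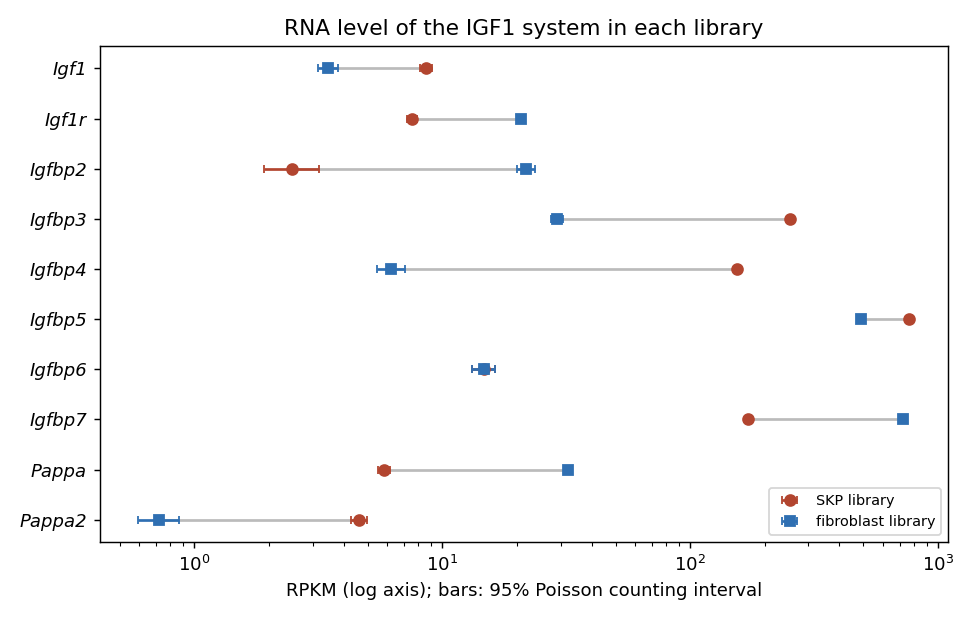
RPKM of the 10 genes on a log axis, with circles for the SKP library, squares for the fibroblast library and bars for the 95% Poisson counting interval of 1 library each. Igfbp4 has the widest gap (154 against 6.22 RPKM), and the markers of Igfbp6 lie on each other (14.7 in both).

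The ligand Igf1 (gene ID 16000) had 1163 reads in the SKP library and 454 in the fibroblast library, which is 8.62 against 3.46 RPKM. The SKP level was 2.49-fold higher (2.23 to 2.78). The deposited coverage, the share of the gene model under reads, was 91.55% in SKPs and 75.26% in fibroblasts, where the same numbers of 49-base reads spread evenly would give 99.97% and 95.6%. The reads of Igf1 were therefore not evenly placed in either library, and which part of the model they covered is not in these tables. Coverage fell short of an even spread in the other members too. That of Igfbp6 was 83.91% in SKPs and 85.06% in fibroblasts, where evenly spread reads would give 100% in both. The receptor Igf1r (16001) stood at 7.53 RPKM in SKPs and 20.8 RPKM in fibroblasts, from 1710 and 4583 reads, and was 2.76-fold lower in the SKP library (2.61 to 2.92). Ligand and receptor RNA thus differed in opposite directions. Within a library, where the scaling between libraries does not enter, Igf1 over Igf1r was 1.14 in SKPs (1.06 to 1.23) and 0.167 in fibroblasts (0.151 to 0.184). Such ratios between genes rest on gene length and coverage too, which their intervals leave out.

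Markers of other cell types known to make Igf1 had higher summed levels in the SKP library. For comparison, 12.1% of all expressed genes were called higher and 6.41% lower in SKPs. The 19 macrophage and leukocyte markers summed to 37.3 RPKM in SKPs and 6.33 in fibroblasts, with Emr1, C1qa and C1qc at 0 reads in fibroblasts. Only 7 of them passed the filter, 5 by their SKP level alone, and 6 were called higher. Adipocyte markers had 11 of 13 higher and 1 lower, 7 of the 13 having passed by their SKP level alone. Lep and Retn had 0 reads in fibroblasts. The adipocyte markers summed to 901 RPKM in SKPs and 461 in fibroblasts. Lpl, the 1 called lower, gave 150 RPKM of the sum in SKPs and 321 in fibroblasts. Scd1, called higher, gave 320 RPKM in SKPs and 94.8 in fibroblasts. Skeletal muscle markers had 7 of 8 higher, with sums of 224 RPKM in SKPs and 132 in fibroblasts. Acta1, the 1 called neither way, gave 116 RPKM of the sum in SKPs and 91.2 in fibroblasts. The part of these cell types in the Igf1 ratio was not tested.

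The other ligand and the other receptors did not share the direction of Igf1r. Igf2, the fetal ligand of the same receptor, stood at 400.9 RPKM in SKPs and 17.2 in fibroblasts, so it was 46.5 times the level of Igf1 in the SKP library and 4.98 times in the fibroblast library. Relative to their shared receptor gene, Igf2 over Igf1r was 53.2 in SKPs (50.7 to 55.9) and 0.829 in fibroblasts (0.779 to 0.882). Insr, the insulin receptor gene, differed little, at 6.33 RPKM in SKPs and 6.30 in fibroblasts (ratio 1.01, 0.924 to 1.09). Igf1r was therefore 1.19 times the level of Insr in SKPs (1.10 to 1.28) and 3.30 times in fibroblasts (3.09 to 3.53). Igf2r, which takes up IGF2 for degradation, stood at 128 RPKM in SKPs and 48.6 in fibroblasts (2.63-fold higher, 2.56 to 2.70). Ghr, the growth hormone receptor that drives Igf1 in liver, stood at 63.2 RPKM in SKPs and 10.00 in fibroblasts and was 6.32-fold higher (5.86 to 6.83). The related Prlr was below the expression filter at 0.940 RPKM in SKPs and 0.258 in fibroblasts. Insrr had 1 read in each library, Igfals, the partner of IGFBP3 in serum, had 4 reads in SKPs and 0 in fibroblasts, and Insl3 had 0 in SKPs and 1 in fibroblasts.

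Among the binding proteins, Igfbp4 (16010), which mostly inhibits IGF action, was the furthest apart of the 10 genes. It had 6035 reads in the SKP library and 237 in the fibroblast library, which is 154 against 6.22 RPKM, a 24.7-fold higher level (21.7 to 28.3). Igfbp3 (16009), the main serum carrier of IGFs, stood at 253 RPKM in SKPs and 29.1 in fibroblasts, 8.72-fold higher (8.24 to 9.24). Both were thus among the abundant transcripts of the SKP library, where Igfbp4 took rank 378 and Igfbp3 rank 207 of 12053 expressed genes, against ranks 7566 for Igfbp4 and 2585 for Igfbp3 in fibroblasts.

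Igfbp2 and Igfbp7 stood the other way. Igfbp2 (16008), which also binds integrins, had 63 reads in SKPs and 539 in fibroblasts, or 2.48 against 21.8 RPKM. It was 8.81-fold lower in the SKP library (6.78 to 11.6), and its 63 reads made it the least precise of the ratios. Igfbp7 (29817), a distant relative with low affinity for IGFs, stood at 171 RPKM in SKPs and 719 in fibroblasts, 4.20-fold lower (4.05 to 4.35). It was the most abundant of the 10 genes in fibroblasts, at rank 75. Endothelial markers, from cells rich in Igfbp7, had 2 of 10 genes over the filter, 1 of them by its SKP level only. Of the 2, 1 was called higher in SKPs. The endothelial markers summed to 9.33 RPKM in SKPs and 5.34 in fibroblasts. Pericyte and smooth muscle markers had 1 of 8 higher and 5 lower, with sums of 288 RPKM in SKPs and 2822 in fibroblasts. The higher marker was Rgs5 (1.08 RPKM in SKPs, 0.150 in fibroblasts), and the lower were Acta2, Myh11, Cnn1, Tagln and Mcam. Acta2 alone gave 41.0 RPKM of the sum in SKPs and 1953 in fibroblasts. Pdgfrb, called neither way, gave 207 RPKM in SKPs and 174 in fibroblasts. Of these 8 markers, 1 passed the filter by its SKP level only and 2 by their fibroblast level only. Their part in the Igfbp7 ratio was not tested.

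Promoters are shown for the binding protein genes furthest apart, Igfbp3 and Igfbp4 (higher in SKPs) and Igfbp2 and Igfbp7 (lower in SKPs). Each run is the 250 bases before the gene's start in RefSeq, build GRCm38.p6, 5′ to 3′ on the gene's strand, with matches to the motifs named below in capitals. Igfbp3 lies at chr11:7213924-7214173 (minus strand), Igfbp4 at chr11:99040994-99041243 (plus), Igfbp2 at chr1:72824230-72824479 (plus, the first of 2 starts) and Igfbp7 at chr5:77408046-77408295 (minus).
Igfbp3: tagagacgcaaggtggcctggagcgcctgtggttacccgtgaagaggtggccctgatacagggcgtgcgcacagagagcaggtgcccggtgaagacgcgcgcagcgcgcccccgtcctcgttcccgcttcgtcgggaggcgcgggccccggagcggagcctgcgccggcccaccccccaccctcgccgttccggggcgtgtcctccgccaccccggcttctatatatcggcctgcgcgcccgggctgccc
Igfbp4: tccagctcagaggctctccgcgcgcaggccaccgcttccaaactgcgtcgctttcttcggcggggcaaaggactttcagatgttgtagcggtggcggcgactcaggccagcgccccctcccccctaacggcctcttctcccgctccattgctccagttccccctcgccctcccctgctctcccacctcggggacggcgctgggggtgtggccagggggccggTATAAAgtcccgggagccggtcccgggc
Igfbp2: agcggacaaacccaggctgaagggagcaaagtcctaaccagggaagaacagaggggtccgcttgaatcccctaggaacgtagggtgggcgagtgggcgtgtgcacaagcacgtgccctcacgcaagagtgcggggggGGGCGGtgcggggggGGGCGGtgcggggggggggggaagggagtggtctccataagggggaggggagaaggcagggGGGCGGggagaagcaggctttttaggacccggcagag
Igfbp7: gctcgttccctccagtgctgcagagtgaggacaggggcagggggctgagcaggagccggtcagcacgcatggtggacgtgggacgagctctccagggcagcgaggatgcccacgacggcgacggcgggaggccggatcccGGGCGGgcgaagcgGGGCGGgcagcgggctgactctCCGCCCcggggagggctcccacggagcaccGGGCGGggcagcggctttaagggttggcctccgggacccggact
The motifs searched on both strands were TATAAA of the core promoter, GGGCGG of the Sp1 family, CCAAT of the NF-Y factor, TTCNNNGAA of STAT factors, TGANTCA of AP-1 and GTAAACA of forkhead factors. Matches to different motifs did not overlap in these windows. GGGCGG, found in 32.7% of all 32851 promoter windows, occurred 3 times in the Igfbp2 window and 4 times in the Igfbp7 window, and was not found in those of Igfbp3 and Igfbp4. The window of the second Igfbp2 start, not shown, held no GGGCGG and had TGANTCA 39 bases before that start. TATAAA, found in 12.4% of all windows, began 28 bases before the start of Igfbp4. The Igfbp3 window held none of the 6 motifs. Only these exact letters were searched, so other forms of a motif were not counted, such as the tatatat near the end of the Igfbp3 window. All 4 windows were rich in G and C, with 73.2% for Igfbp3, 69.2% for Igfbp4, 67.2% for Igfbp2 and 74.0% for Igfbp7, beside a median of 52.4% over all windows. Of the other members with a window, Igf1r held GGGCGG 2 times, and Igf1 held TGANTCA 37 bases and CCAAT 142 bases before its start. Igfbp6 held TATAAA and CCAAT, and Pappa2 held CCAAT 217 bases before its start. TTCNNNGAA and GTAAACA were in no window of these genes. A match is a description of letters, not a bound site.

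Igfbp5 (16011), which binds to extracellular matrix, was abundant in both libraries, with 84575 reads (762 RPKM, rank 53) in SKPs and 52641 reads (489 RPKM, rank 121) in fibroblasts. Its ratio of 1.56 (1.54 to 1.58) excluded equality but not by 2-fold. Igfbp6 (16012), which prefers IGF2, had 363 reads in SKPs and 354 in fibroblasts. Its ratio of 0.996 (0.858 to 1.16) allows a difference of up to 1.17-fold either way from counting error alone. Igfbp1 and Igfbpl1 were not among the genes with a read.

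**Figure D2:**
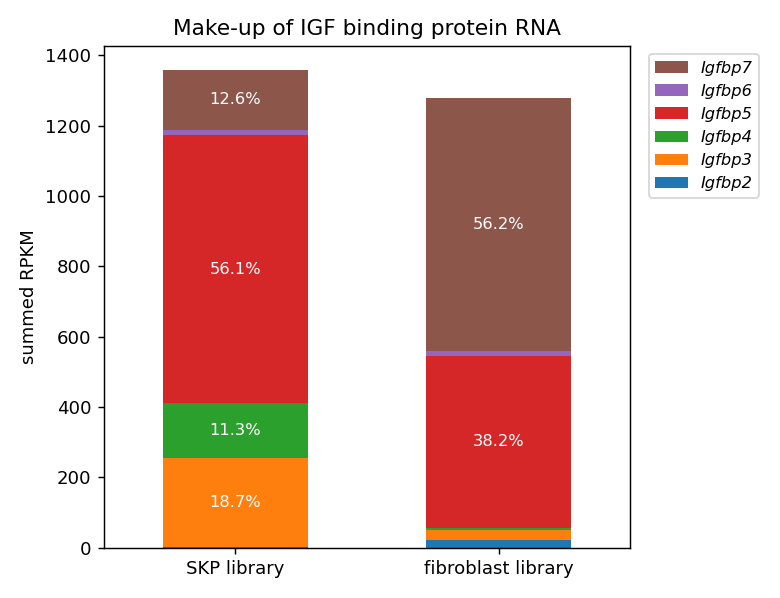
Summed RPKM of Igfbp2 to Igfbp7 in the SKP library (left) and the fibroblast library (right), stacked by gene, with the percent of the sum printed in the larger segments. The bars are nearly as tall (1358 against 1280 RPKM), while Igfbp7 fills 12.6% of the SKP bar and 56.2% of the fibroblast bar.

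Added over the 6 genes, binding protein RNA came to 1358 ± 4.9 RPKM in SKPs and 1280 ± 6.2 RPKM in fibroblasts (counting standard error, 1 library each), a ratio of 1.06 (1.05 to 1.07). The make-up of that sum differed between the libraries. Igfbp5 made up 56.1% in SKPs (55.7 to 56.5) and 38.2% in fibroblasts (37.8 to 38.6). Igfbp7 made up 12.6% (12.3 to 13.0) in SKPs and 56.2% (55.8 to 56.6) in fibroblasts. Igfbp3 and Igfbp4 together with Igfbp5 accounted for most SKP binding protein RNA, Igfbp3 with 18.7% in SKPs and 2.27% in fibroblasts and Igfbp4 with 11.3% in SKPs and 0.486% in fibroblasts. Without Igfbp7, the sum was 1187 RPKM in SKPs and 560 in fibroblasts, a ratio of 2.12 (2.09 to 2.14), and the share of Igfbp5 turned round, to 64.2% in SKPs and 87.2% in fibroblasts. By reads, not scaled for length, the summed ratio was 1.46 and the share of Igfbp5 was 79.2% in SKPs and 74.0% in fibroblasts.

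The pappalysins differed in opposite directions. Pappa (18491), whose product cuts IGFBP4 and IGFBP5, had 1218 reads in SKPs and 6522 in fibroblasts, or 5.83 against 32.1 RPKM, and was 5.51-fold lower in the SKP library (5.18 to 5.87). Pappa2 (23850), whose product cuts IGFBP3 and IGFBP5, had 753 reads in SKPs and 114 in fibroblasts, or 4.62 against 0.720 RPKM, and was 6.42-fold higher (5.26 to 7.88). Pappa2 over Pappa was accordingly 0.793 in SKPs (0.723 to 0.869) and 0.0224 in fibroblasts (0.0185 to 0.0270). The deposited coverage of the Pappa2 model was 93.06% in SKPs and 37.89% in fibroblasts, where evenly spread reads would give 98.6% and 47.8%.

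Each protease was then set against the RNA of its substrates. Igfbp4 over Pappa was 26.4 in SKPs (24.8 to 28.1) and 0.194 in fibroblasts (0.169 to 0.221), so the substrate was the more abundant RNA in SKPs and the protease in fibroblasts. That ratio differed 136-fold between the libraries (118 to 157). Igfbp3 over Pappa2 was 54.9 in SKPs (51.0 to 59.1) and 40.4 in fibroblasts (33.3 to 49.3), a 1.36-fold difference (1.11 to 1.67), since both genes were higher in SKPs. Igfbp5 over Pappa was 131 in SKPs and 15.2 in fibroblasts, and Igfbp5 over Pappa2 was 165 in SKPs and 679 in fibroblasts. Igfbp2, not among the substrates named above, was also set against Pappa. Igfbp2 over Pappa was lower in SKPs, at 0.425 (0.325 to 0.548) against 0.679 in fibroblasts (0.621 to 0.742). This was opposite to Igfbp4 and Igfbp5 over Pappa.

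**Figure D3:**
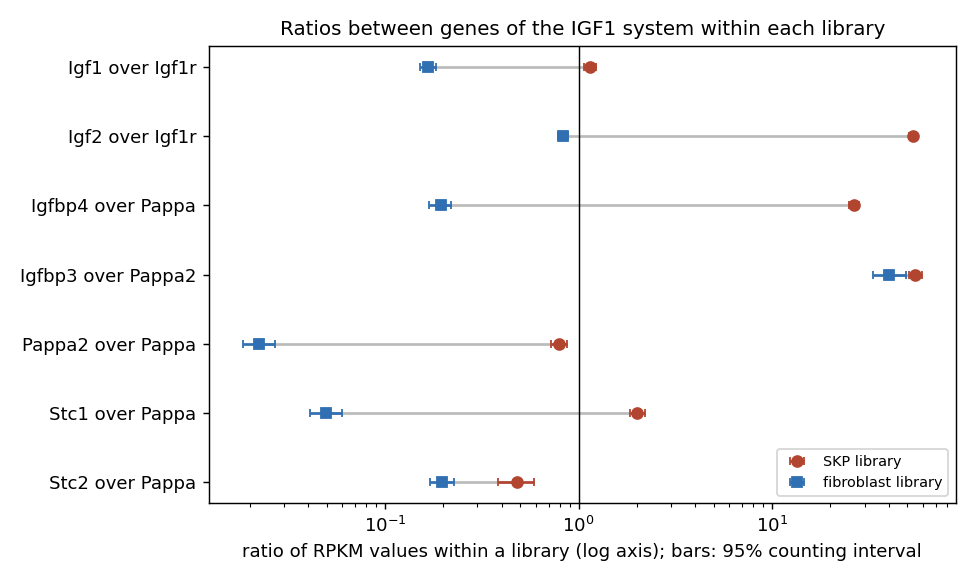
Ratios of RPKM between pairs of genes within each library on a log axis, with circles for SKPs, squares for fibroblasts and bars for the 95% counting interval. Igfbp4 over Pappa lies on opposite sides of 1 (26.4 in SKPs, 0.194 in fibroblasts), while Igfbp3 over Pappa2 is 54.9 in SKPs and 40.4 in fibroblasts.

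The stanniocalcins, secreted inhibitors of pappalysins, split as well. Stc1 stood at 11.7 RPKM in SKPs and 1.60 in fibroblasts, 7.32-fold higher (5.99 to 9.01), and Stc2 at 2.80 in SKPs and 6.36 in fibroblasts, 2.28-fold lower (1.78 to 2.93). Relative to Pappa, however, both were higher in SKPs: Stc1 over Pappa was 2.01 in SKPs and 0.0497 in fibroblasts, and Stc2 over Pappa was 0.480 in SKPs and 0.198 in fibroblasts. By reads, not scaled for length, Stc1 (829) was below Pappa (1218) in SKPs. Of the serine proteases that can cut binding proteins, Htra3 stood at 45.4 RPKM in SKPs and 6.50 in fibroblasts (6.97-fold higher, 6.21 to 7.85). Htra1 stood at 61.0 in SKPs and 128 in fibroblasts (2.10-fold lower, 2.00 to 2.21).

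In the wider list of 23 IGFBP proteases and pappalysin inhibitors, the 17 expressed genes divided into 10 higher in SKPs, 3 lower and 4 under the threshold, and their median log2 ratio was 1.60, beside 12.1% higher and 6.41% lower over all expressed genes. The others furthest apart were the metalloproteases Mmp1a, with 202 reads in SKPs and 1 in fibroblasts, and, with the SKP against the fibroblast RPKM, Mmp9 (261 against 1.96), Mmp3 (1860 against 27.1), the urokinase gene Plau (421 against 14.7), the complement protease gene C1s (27.2 against 5.27) and Mmp2 (1215 against 282.9). Mmp1a was over the expression filter in SKPs only. With the list of other ligands, receptors and carriers, where 3 of 4 expressed genes were higher and 0 lower, 13 of 21 were higher and 3 lower. IGF signalling is only 1 of the functions of most of these proteases.

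**Figure D4:**
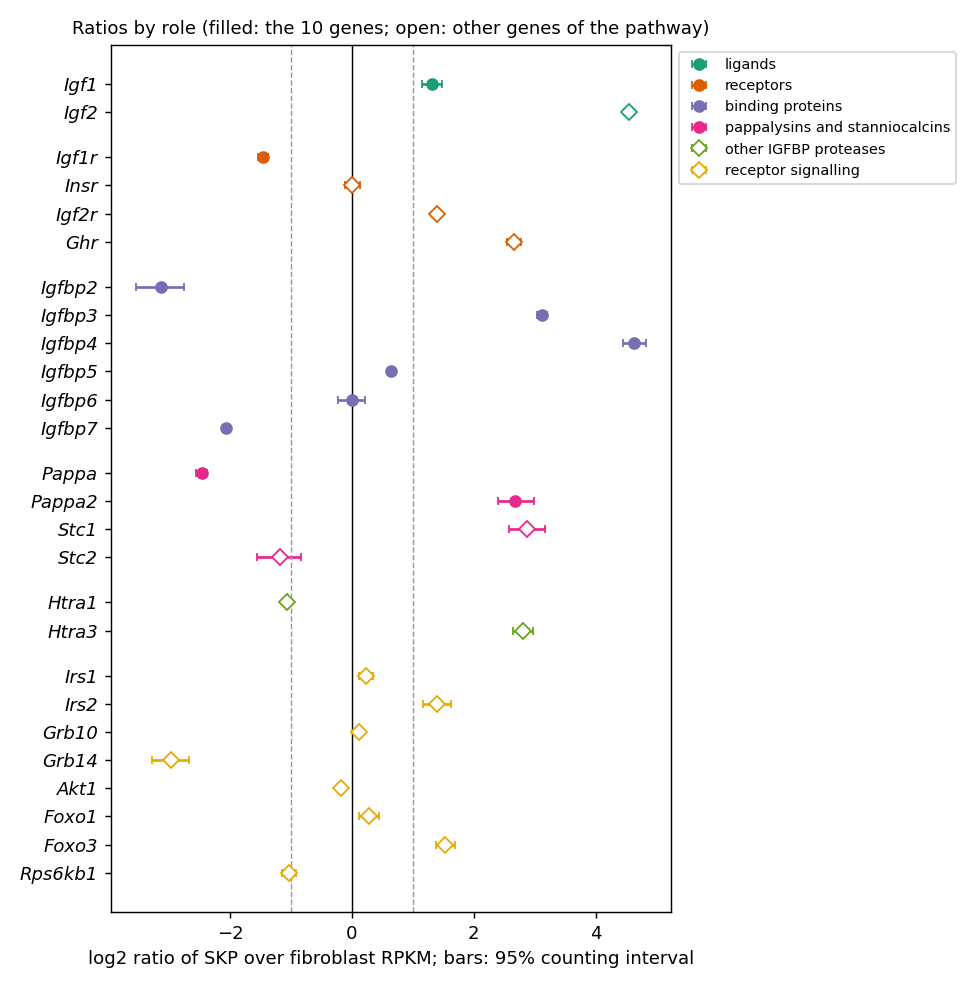
Log2 ratio of SKP over fibroblast RPKM by role, filled for the 10 genes and open for other genes of the pathway, with 95% counting intervals and dashed lines at 2-fold. The binding proteins reach from -3.14 (Igfbp2) to 4.63 (Igfbp4), while Irs1, Grb10, Akt1 and Foxo1 lie between the dashed lines.

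Most genes of the signalling chain inside the cell were under 2-fold apart. Among 52 expressed genes of IGF receptor signalling, 2 were called higher in SKPs and 2 lower, which leaves 48 uncalled and is 7.69% called, beside 18.5% of all expressed genes, with a median log2 ratio of 0.02. At 1.5-fold the list had 8 higher and 5 lower, beside 18.7% and 14.2% of all expressed genes. Higher were the receptor substrate gene Irs2 (7.32 RPKM in SKPs, 2.79 in fibroblasts, 2.63-fold, 2.23 to 3.10) and Foxo3, a transcription factor that AKT holds in the cytoplasm (23.7 RPKM in SKPs, 8.20 in fibroblasts, 2.89-fold, 2.59 to 3.23). Lower were Grb14, an adaptor that inhibits the insulin receptor (2.77 RPKM in SKPs, 21.7 in fibroblasts, 7.82-fold, 6.37 to 9.69), and the S6 kinase gene Rps6kb1 (8.60 RPKM in SKPs, 17.6 in fibroblasts, 2.04-fold, 1.88 to 2.22). Under 2-fold apart, with the SKP against the fibroblast RPKM, were the receptor substrate gene Irs1 (7.69 against 6.52), the adaptor gene Grb10 (83.7 against 77.2), the kinase gene Akt1 (170 against 191) and the transcription factor gene Foxo1 (6.63 against 5.47). So were the 3 genes of IGF2 mRNA binding proteins, Igf2bp1 (3.85 against 6.48), Igf2bp2 (55.1 against 40.6) and Igf2bp3 (9.95 against 14.4).

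Ordered by level, the SKP library had Igfbp5, Igfbp3, Igfbp7, Igfbp4, Igfbp6, Igf1, Igf1r, Pappa, Pappa2 and Igfbp2, with no overlap between the 95% counting intervals of neighbours. The fibroblast library had Igfbp7, Igfbp5, Pappa, Igfbp3, Igfbp2, Igf1r, Igfbp6, Igfbp4, Igf1 and Pappa2. There the intervals of Igfbp2 (20.0 to 23.7 RPKM) and Igf1r (20.2 to 21.4) overlapped, so their order is not resolved. Order between genes also rests on gene length and even coverage, which these intervals do not cover. In SKPs, Igf1 stood above Igf1r by RPKM but below it by reads (1163 against 1710). By Euclidean distance in log2 RPKM, the 3 expressed genes nearest to Igf1 were Atf7 (0.03), Myog (0.05) and Cgnl1 (0.08). This likeness rests on 2 libraries and so describes a pair of levels only.

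**Figure D5:**
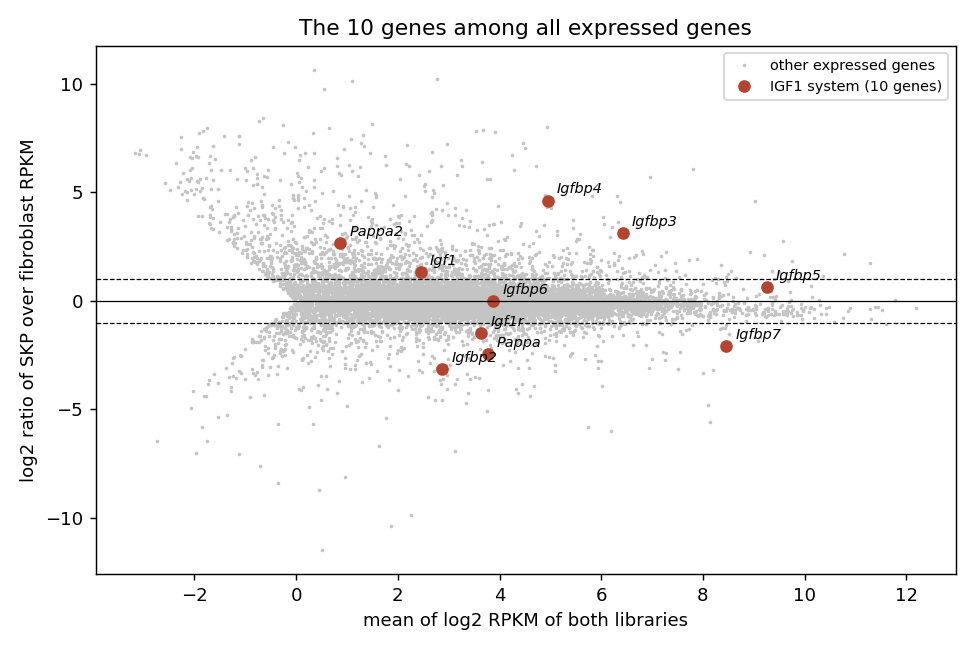
Log2 ratio of SKP over fibroblast RPKM against the mean of log2 RPKM for the 11998 expressed genes with a read in both libraries (grey) and the 10 genes (red, named). Dashed lines mark 2-fold. Igfbp4 and Igfbp3 lie above most genes of their level and Igfbp7 below, and Igfbp6 lies at 0.

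Igfbp2 and Igfbp5 are next to each other on chromosome 1 in RefSeq, yet stood apart in ratio, with Igfbp2 8.81-fold lower and Igfbp5 1.56-fold higher in SKPs. Igfbp3 has Igfbp1, for which no read was listed, as its neighbour on chromosome 11. In the GENCODE M21 transcripts, between 0% and 3.07% of the 49-base words of each of the 10 genes also occur in another gene, and 0 occur in another of the 10. The highest share, in Igfbp7, comes from 85 exon bases that overlap Polr2b on the opposite strand, a gene at 24.0 RPKM in SKPs and 22.4 in fibroblasts. The part of Polr2b reads in Igfbp7 was not tested.

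In the authors' deposited table, 8 of the 10 genes are among the 2659 of 17431 genes (15.3%) kept in the filtered list, whose log2 ratios are all at least 1.00 in size. That table gives fibroblast over SKP, with -4.63 for Igfbp4 and 3.14 for Igfbp2. The 2 genes not kept are Igfbp5 and Igfbp6.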

How the data were processed

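Poly(A) RNA of 1 SKP and 1 fibroblast library was sequenced. The deposited count of reads per gene carries no normalization per the file headers. Summed over genes, these counts pass the number of singly matched reads (by 4370357 in SKPs, 3924587 in fibroblasts), and whether the excess is reads with several matches or reads counted in more than 1 gene is not stated. The deposited RPKM values equal reads over gene length over those totals (17418 of 17431 genes within 0.1% in both libraries). The deposited percent values are the covered share of gene length and, in the mapping tables, shares of total reads. The authors' deposited log2 ratios put 0.01 for an RPKM of 0, and their p-value and FDR come from a test not given in the sources used here and are not printed. Per the submitters' processing notes the build was mm9, with at most 2 mismatches per the class names of the mapping tables. The aligner, the counter and any use of strand were not given in the sources used here, so overlapping genes cannot be separated.

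Ratios and 95% exact (Clopper-Pearson) counting intervals were computed with scipy 1.17.1, numpy 2.4.6 and pandas 2.3.3 under Python 3.11.15 (figures with matplotlib 3.10.9), and tested on simulated data. Intervals of sums, shares and of ratios of ratios used 1.96 counting standard errors on either side. A gene at 0 reads was set to a floor of 3 reads. With 1 library per cell type there was no test and no p-value. Alternatives were other scalings (TMM from edgeR 4.0.16 in R 4.3.3, median-of-ratios factors, totals without the 10 genes with the most reads, reads with a single match), other expression filters, pseudocounts and fold thresholds. The members and lists were chosen with earlier results of these data known. Named besides the members were all genes with a read of the lists of other ligands and receptors and of IGF2 mRNA binding proteins, Stc1, Stc2, Htra1, Htra3 and the 6 further proteases with the largest log2 ratio in size, and the called signalling genes with others chosen by name, 1 of which is not reported here. Sequences come from RefSeq, build GRCm38.p6, which matched 9 of the 10 genes (all but Pappa). As the files use another build, no other coordinates are given.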

Additional observations from a re-analysis of the deposited data

How the results depend on the processing

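The calls of Igfbp3, Igfbp4, Igfbp2, Igfbp7, Igf1, Igf1r and Pappa were kept under each scaling, filter and pseudocount tried, and that of Pappa2 under each but the filter at RPKM 5, which removed it. Scalings moved all log2 ratios by -0.04 to 0.03. The log2 ratio of Igf1 ranged over 1.11 to 1.35, that of Igf1r over -1.50 to -1.35 and that of Pappa2 over 1.71 to 2.71, its lowest with log2(RPKM + 1). Only the sign of Igfbp6 changed, under 2 of its 10 alternatives, between -0.04 and 0.03. At RPKM 5, where 9 members remained, their median was -0.0057. The signalling list had 8 genes higher and 5 lower of 52 at 1.5-fold (32.9% of all expressed genes called), 0 and 1 at 4-fold, and 1 lower with log2(RPKM + 1) or with single-match totals, where Rps6kb1 was no longer called. It had 3 lower, with Map2k1 added, under TMM and under totals without the 10 genes with the most reads. The other ligands, receptors and proteases had 3 lower under the main rule, 1 with log2(RPKM + 1) and 0 at 4-fold. Under the remaining alternatives they had 2 to 4 lower. At 4-fold 10 of 21 were higher, beside 5.85% higher and 2% lower over all expressed genes. By reads instead of per length, binding protein RNA was 1.46-fold higher in SKPs, with Igfbp5 at 79.2% in SKPs and 74.0% in fibroblasts and Igfbp7 at 3.69% in SKPs and 22.6% in fibroblasts. Without Igfbp7 the summed ratio was 2.12 and Igfbp5 made up 64.2% in SKPs and 87.2% in fibroblasts. No paired analysis was possible because each cell type had 1 library, and no library could be left out. Depth limits the ratio of Igfbp2 most, with 63 SKP reads.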
